A study of Homo sapiens with 50 samples.

Results

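A total of 881 of the 6481 genes in the authors' list had their pause site 100 to 199 bp downstream of the listed 5′ end, a share of 13.6%. These genes were selected on that measured distance, which runs along the gene's strand from its first listed base (position 0) to the single listed pause base. Each entry of the list pairs a gene interval with a pause site of 1 bp, in hg38 coordinates. The 95% Wilson interval of the share was 12.8 to 14.4%, and here and below such intervals cover the counting of entries only, because genes are not replicates. The list carries no score and no value per library, so neither the depth behind a site nor a replicate error can be given. No test was run on any difference described below, and the members are set beside the remaining 5600 entries by counts and medians.

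The series was made in DLD-1, an established human colorectal adenocarcinoma line, in cells that express the plant auxin receptor OsTIR1 constitutively. The lines named in the labels are the parental line and lines with an auxin-inducible degron (AID) tag on SPT6, on PAF1, on SPT6 and PAF1 together, or on SPT6 and NELFc together; whether each is a single clone was not given in the sources used here. Cells received vehicle for 2 h or 500 µM auxin for 0, 2 or 6 h, and 50 libraries of immunoprecipitated chromatin or input were made, against RPB1 (total RNA polymerase II), SPT6, the PAF1 complex proteins PAF1, LEO1, CDC73, WDR61 and RTF1, and NELF-C. The signal in these libraries was not analysed here, and the assay and samples behind the pause sites were not given in the sources used here.

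RNA polymerase II halts soon after it starts at most active animal genes, held by the factors DSIF and NELF, and it leaves that pause when the kinase P-TEFb (CDK9 with a cyclin T) phosphorylates them and the polymerase. SPT6, a histone chaperone, and the PAF1 complex then travel with the elongating enzyme. The place of the pause relative to the start differs between genes. Pauses are commonly described as lying close to the start, and sites farther out are often discussed together with the first nucleosome of the gene.

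The bases at the pause site are shown for 12 members of the gene groups described below, chosen after their bases were seen so that both the frequent and the less frequent bases appear. All windows come from the RefSeq promoter table (GRCh38.p14, the primary coordinates of hg38), span 30 bases and are written 5′ to 3′ on the gene's strand. The capitals mark the listed pause base and the base 1 position downstream of it.
MRPL3 (chr3:131502850-131502879, minus strand): tgaaagcagagcggCAgggcgcccggaagt
MRPS16 (chr10:73252503-73252532, minus strand): ggtgcgtgcgggtaGCggggctctccgagg
MRPS35 (chr12:27710930-27710959, plus strand): cactccggtcccgaCAcctagcctgcgtga
KDM5A (chr12:389180-389209, minus strand): ttgtccgcgaagatGCgcttcggcctctgt
KDM3A (chr2:86441472-86441501, plus strand): ggagaggggagagaAAggtgaaagcgccga
ZNF770 (chr15:34988155-34988184, minus strand): acttcagaaacccgACtgagaagtggagcg
SLC25A45 (chr11:65382686-65382715, minus strand): aggacgtgaggtcaGAggagaatgggcggc
SMC2 (chr9:104094437-104094466, plus strand): ggagcttttggggtGCgtcaagcccctggc
XRN2 (chr20:21303479-21303508, plus strand): gaggcgccaggcggCCgccacactcgagcc
PSMA4 (chr15:78540609-78540638, plus strand): caagacagtcggtcCCggcctgcagttgcc
SLC1A3 (chr5:36606782-36606811, plus strand): acttctctgccgatGTattttgccttccaa
SLC22A5 (chr5:132369974-132370003, plus strand): tgcgggactacgacGAggtgaccgccttcc
In this selection KDM5A, MRPS16 and SMC2 have G and then C, XRN2 and PSMA4 have C and then C, and ZNF770 has A and then C. The downstream base is A in MRPL3, MRPS35, KDM3A, SLC25A45 and SLC22A5, and T in SLC1A3. KDM5A and KDM3A encode histone demethylases, MRPL3, MRPS16 and MRPS35 encode proteins of the mitochondrial ribosome, and SLC1A3 and SLC22A5 encode a glutamate and a carnitine transporter.

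Over all members whose site falls in a promoter window of the table (98 of the 881), the base 1 position downstream of the listed site was cytosine in 77, or 78.6% (95% Wilson interval 69.5 to 85.5%). Among the other entries it was cytosine in 1651 of 1903, or 86.8% (85.2 to 88.2%). Guanine stood there in 1 of the 98 members and in 6 of the 1903 others. Cytosine made up 31.3% of the bases 3 to 10 positions away from the members' sites and 30.9% of those in the others, so in both groups the downstream position stood far above its own surroundings. The listed base itself was guanine in 38.8% of the members (29.7 to 48.7%) and 49.2% of the others (47 to 51.5%). It was adenine in 31.6% (23.3 to 41.4%) and 21.1% (19.3 to 23%). Guanine followed by cytosine occurred at 29.6% of the members' sites (21.5 to 39.3%) and 43.1% of the others' (40.9 to 45.3%). Among the others, these shares were 51.3%, 22.8% and 44.6% at the 193 entries with a site 60 to 99 bp downstream. At the 46 entries with 200 bp or more they were 26.1%, 37% and 19.6%. The lower guanine and higher adenine shares were thus not confined to the members.

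Within the members, cytosine followed the site in 57 of 71 with a distance under 150 bp (80.3%) and in 20 of 27 from 150 bp (74.1%). It did so in 46 of 60 on the plus strand and in 31 of 38 on the minus strand. At the entries with a site 60 to 99 bp downstream the share was 86.0% (166 of 193), and at those with 200 bp or more it was 87.0% (40 of 46). The windows of the table end 50 bp after a start, so most members' sites could not be read. The 98 that could lie from 250 bp before to 50 bp after an annotated start of the same or of another gene, and whether they resemble the other members in sequence was not tested. A window of the gene itself held 39 of these 98 sites, against 1411 of the 1903 sites of the other entries. The 2 groups were thus read at unlike places. Within such windows cytosine followed the site in 76.9% of the members (30 of 39) and 86.5% of the others (1221 of 1411). Whether the listed coordinate marks the last base of the nascent RNA or its neighbour was not given in the sources used here.

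**Figure D1:**
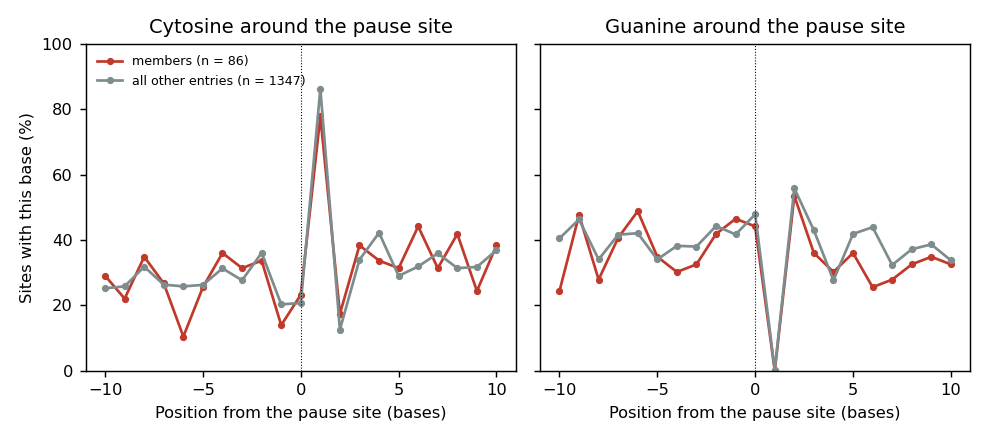
Share of sites with cytosine (left) and guanine (right) at each position from 10 bases upstream to 10 bases downstream of the listed pause base (position 0, dotted line), for the 86 members and 1347 other entries whose window holds all of these positions. Both lines peak for cytosine and drop for guanine at position 1, and the members' cytosine peak of 77.9% lies below the 86.3% of the others.

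The listed 5′ ends could be read for more genes. The windows below show 9 members that the results on starts and gene groups name, with capitals on the base just upstream of the listed 5′ end and on the first listed base.
JUN (chr1:58784028-58784057, minus strand): ctggataagggctCAgagttgcactgagtg
BTG2 (chr1:203305505-203305534, plus strand): gggaaagtccgggCAgagcccgagcagcgg
MLLT3 (chr9:20622484-20622513, minus strand): ggcgcatgctccgCAatcatcttctttacc
CDK9 (chr9:127786031-127786060, plus strand): gccgtggaggcggAAgtggcgcggccgcgg
CDK1 (chr10:60778464-60778493, plus strand): gtttgaaactgctCGcacttggcttcaaag
TOP2A (chr17:40417866-40417895, minus strand): accgacgcgcgtcTGtggagaagcggcttg
SMC2 (chr9:104094294-104094323, plus strand): ctcgcgccgaaatTCaaaggaataaatagt
XRN2 (chr20:21303329-21303358, plus strand): ctgccgctgctccCGtctctttggttacgc
HSPA8 (chr11:123062121-123062150, minus strand): gggcggaaaccggTCtcattgaactcgcct
Of these starts, JUN, BTG2 and MLLT3 have C and then A, the pair most often found at human transcription starts. In CDK1 and XRN2 the pair is C and then G, in CDK9 A and A, in TOP2A T and G, and in SMC2 and HSPA8 T and C. Across the 598 members whose 5′ end could be read, cytosine stood just upstream in 66.1% and adenine was the first listed base in 65.1%, with both in 288 (48.2%, interval 44.2 to 52.2%). In the 3797 other entries these shares were 67.8%, 68.9% and 52.5%. The shares at these positions were thus close to those of the remaining list. The base after the first listed one was guanine in 40.5% of the members (36.6 to 44.5%) and 47.2% of the others (45.6 to 48.8%), and thymine in 30.6% (27 to 34.4%) and 23.6% (22.3 to 25%). At this position, picked from several positions and bases compared, the intervals of members and others did not overlap for guanine or thymine. The shares of the bases at a position depend on each other, and the difference was not tested. The thymine share was 23.1% at entries with 60 to 99 bp and 24.4% from 200 bp on.

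The distances among the members thinned out toward the upper limit. Their quartiles were 113, 133 and 161 bp. There were 174 entries at 100 to 109 bp, 125 in the next 10 bp, 77 from 140 bp and 38 from 190 bp. The counts continued across both limits without a gap, with 229 entries in the 10 bp below the lower limit and 42 in the 10 bp above the upper. At the lower limit 22 entries had 98 bp and 21 had 99 bp (CLN8, CLUAP1 and COPS3 among the latter), against 16 at 100 bp (C1orf159, C1orf174 and HMCN1) and 20 at 101 bp (C1GALT1, CADPS and DNAJC27). At the upper limit 4 entries had 198 bp (ATP8B1, FBXL14 and SRP9) and 2 had 199 bp (ASNSD1), against 3 at 200 bp (CREBL2 and MAP2) and 5 at 201 bp (BRPF3, C11orf58 and CYB5B). The limits therefore cut a continuous tail, in which 568 members lay under 150 bp and 313 at or above it. The whole list ran from 0 to 299 bp with a median of 52 bp, and its entries below 100 bp and from 200 bp on make up the comparison group.

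**Figure D2:**
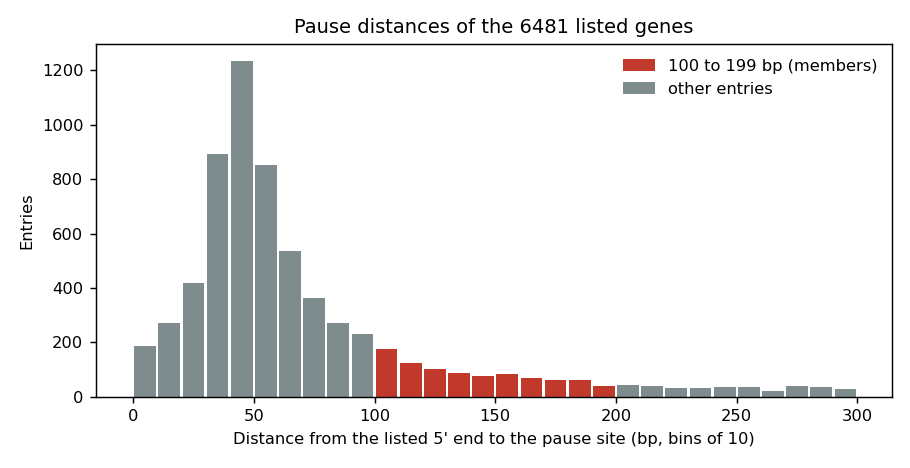
Number of entries (y axis) in each 10 bp of distance from the listed 5′ end to the pause site (x axis) for all 6481 genes, with the 881 members in red. The members form the falling shoulder to the right of the main peak, from 174 entries in the first 10 bp to 38 in the last.

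A symbol could be given to 779 of the members (88.4%) and to 90.1% of the other entries, by position in RefSeq, and all named entries, members or not, are annotated as protein coding. Of these, 187 belonged to the gene lists and families described here and 592 to neither. Against the named entries as a whole, 13.4% of which are members, the lists were small, and their counts are given as they stand.

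Among the proteins the study's antibodies and degrons address, RTF1 was a member and the other 4 listed genes were not. RTF1, a PAF1 complex protein that stimulates elongation, had its listed 5′ end at chr15:41417132 on the plus strand and its site at 41417263, which gives 131 bp. Of 22 listed genes for pausing and elongation factors, 5 were members, RTF1 included. CDK9, the kinase that releases the pause, had its site at 120 bp (chr9, plus strand, 127786045 to 127786165). MLLT3 and MLLT1, the reader proteins AF9 and ENL of the super elongation complex, lay at 118 and 196 bp. XRN2, the exonuclease that degrades RNA behind the terminating polymerase, lay at 150 bp. The 5 genes thus covered most of the span, with MLLT1 3 bp short of its end.

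The immediate early genes, which respond to growth factors within minutes, had 5 members among 21 listed. JUN, a subunit of the AP-1 transcription factor, had its 5′ end at chr1:58784043 on the minus strand and its site at 58783937, or 106 bp. DUSP4 and DUSP6, phosphatases that switch off MAP kinases, lay at 108 and 178 bp. BTG2, an antiproliferative factor that is also a p53 target, lay at 110 bp, and KLF10, a TGF-β-responsive repressor, at 153 bp. JUN, DUSP4 and BTG2 fell within 10 bp of the lower limit. The other p53 target among the members was RRM2B, a ribonucleotide reductase subunit, at 182 bp (2 members of 13 listed).

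Genes of cell division contributed 7 of 24 listed mitosis genes. MAD2L1 (101 bp) and BUB1B (115 bp) encode spindle checkpoint proteins. KIF11 (104 bp) encodes the kinesin that separates the spindle poles. CDK1 (127 bp) encodes the kinase that drives entry into mitosis, with its 5′ end at chr10:60778478 and its site at 60778605. TOP2A (129 bp) and SMC2 (143 bp) encode topoisomerase II alpha and a condensin subunit, and INCENP (149 bp) encodes the scaffold of the chromosomal passenger complex. All 7 lay below 150 bp, as did 568 of the 881 members. DNA replication had 2 of 19 listed genes, PRIM2, the large primase subunit, at 105 bp and MCM6, a helicase subunit, at 142 bp.

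The aminoacyl-tRNA synthetases, whose enzymes load amino acids onto tRNAs, had several members among their listed genes. QARS1 lay at 109 bp, LARS1 at 114 bp, TARS1 at 118 bp and MARS2, the mitochondrial methionine enzyme, at 131 bp. The heat shock list had 2 of 14, HSF2, a heat shock transcription factor, at 102 bp and HSPA8, the constitutive HSC70 chaperone, at 186 bp (chr11, minus strand, 123062136 to 123061950). The splicing list had 2 of 18, PRPF19, a ubiquitin ligase of the spliceosome, at 108 bp and SRSF11 at 142 bp. The nuclear pore list had 2 of 18, NUP155 at 155 bp and NUP50 at 186 bp.

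Each of 5 further lists held a single member. PMVK, phosphomevalonate kinase, lay at 192 bp (1 of 12 cholesterol synthesis genes), PKM, pyruvate kinase, at 105 bp (1 of 9 glycolysis genes) and CHAC1, a glutathione-degrading enzyme, at 138 bp (1 of 13 integrated stress response genes). BMP4, a secreted growth factor, lay at 188 bp (1 of 15 Wnt target genes). TFF3, a secreted trefoil peptide of goblet cells, lay at 145 bp (1 of 9 listed colon epithelium markers). No fibroblast or blood cell marker of the lists was found among the named entries, in or outside the span. Entries without a symbol were not matched to the lists. In all, 15 of the 17 lists held at least 1 member.

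**Figure D3:**
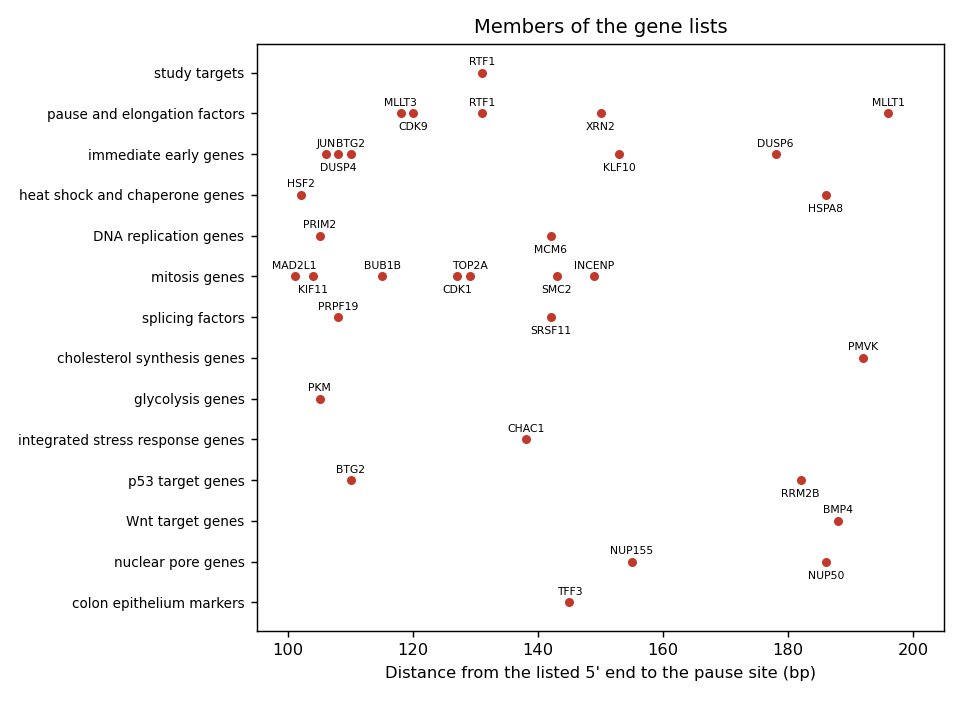
Distance from the listed 5′ end to the pause site (x axis, bp) of members of the gene lists (aminoacyl-tRNA synthetases not drawn), with 1 row per list and 1 point per gene. The 7 mitosis genes sit between 101 and 149 bp, and the replication and splicing genes between 105 and 142 bp. Heat shock, nuclear pore and elongation genes reach 186 bp or more.

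Gene families defined by symbol gave shares from 4% to 35.0% among the 22 families with at least 20 listed genes. In 20 of these 22 the 95% Wilson interval held the 13.4% of all named entries. The exceptions were the DNAJ co-chaperones, which deliver substrates to HSP70, with 7 of 20 (35.0%, 18.1 to 56.7%), and the zinc finger (ZNF) genes with 35 of 189 (18.5%, 13.6 to 24.7%). The DNAJ members were DNAJC27 (101 bp), DNAJC8 (113 bp), DNAJB2 (114 bp), DNAJC5 (131 bp), DNAJB12 (139 bp), DNAJC1 (141 bp) and DNAJC10 (152 bp). The ZNF genes, mostly sequence-specific repressors, ran from ZNF354B at 100 bp through ZNF789 at 134 bp to ZNF587 at 195 bp. With 30 families laid side by side and no test, these counts set neither family apart. In a smaller set, only entries with a 5′ end within 10 bp of the outermost RefSeq start were used. There the ZNF share was 15.3% and the DNAJ share 37.5%, beside 12.4% for all entries of the set.

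Transcription and chromatin families followed. In that same smaller set the ZBTB share was 50% and the remodeller share 11.1%, so both moved by more than 1.5 times. The set held 39.9% of the named entries, so family shares in it rest on fewer genes than the counts given here. ZBTB transcription factors had 6 of 22 (27.3%), from ZBTB39 at 109 bp through ZBTB6 at 129 bp to ZBTB26 at 177 bp. Chromatin remodellers had 6 of 25 (24.0%). SMARCC1 (105 bp) and ARID1A (121 bp) are subunits of the BAF complex, SMARCA5 (129 bp) is the ISWI ATPase, CHD1 (152 bp) is a remodeller that travels with elongating polymerase, and INO80 (153 bp) and INO80C (189 bp) belong to the INO80 complex. Histone lysine methyltransferases and demethylases had 3 of 23, the demethylases KDM5A (114 bp), KDM3A (115 bp) and KDM6A (148 bp). RNA polymerase subunits had 3 of 11, with POLR3F at 102 bp and POLR2K and POLR3B both at 191 bp. General transcription factors, Mediator, HNRNP and HOX genes each had 1 member, GTF3C3 at 137 bp, MED7 at 127 bp, HNRNPLL at 112 bp and HOXD13 at 106 bp.

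Families of protein synthesis and turnover had shares on both sides of 13.4%. The cytosolic ribosomal protein genes had 4 of 36 (11.1%), among them RPL27 at 111 bp, RPL36A at 144 bp and RPL22L1 at 169 bp. The mitochondrial ribosomal protein genes had 6 of 31 (19.4%), from MRPS30 at 102 bp through MRPL3 at 104 bp to MRPL58 at 151 bp. The symbol group of translation initiation factors, formed by symbol and not by function, had 3 of 26 (11.5%). These were EIF4G1 (102 bp), EIF4EBP1 (141 bp) and EIF4A3 (195 bp). Proteasome subunits and activators had 4 of 23, PSME3 (131 bp), PSMB2 (135 bp), PSMB5 (171 bp) and PSMA4 (179 bp). F-box genes had 6 of 29, from FBXW11 at 105 bp through FBXO7 at 115 bp to FBXL14 at 198 bp. Ubiquitin-specific proteases had 4 of 27, from USP11 (114 bp) through USP3 (122 bp) to USP2 (156 bp). The ubiquitin-conjugating enzymes included UBE2D4 (102 bp). The TRIM genes TRIM56 (103 bp) and TRIM38 (190 bp) and the ring finger genes RNF13 (102 bp) and RNF168 (159 bp) were the only members of their families. The smaller set held entries that start within 10 bp of the outermost RefSeq start. In it the shares of the proteasome, F-box, ubiquitin-conjugating, TRIM and ring finger genes were 0%. PSMA4 and FBXO31 did begin exactly at a start of the promoter table, but not at the outermost one. The share of the symbol group of initiation factors in the set was 7.14%. Those of the mitochondrial and cytosolic ribosomal protein genes were 28.6% and 8%. These shares rest on fewer genes than the counts above. The DEAD and DEAH box helicases had 1 of 25 (4%), DDX50 at 126 bp, and a share of 8.33% in that set.

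The remaining families concern transport, metabolism and signalling. Solute carriers had 22 of 121 (18.2%), from SLC17A5, a lysosomal sialic acid exporter, at 102 bp through SLC6A6, the taurine transporter, at 147 bp to SLC1A1 at 192 bp. Oxidative phosphorylation genes had 4 of 35 (11.4%), the complex I subunits NDUFS4 (118 bp) and NDUFB4 (185 bp) and the ATP synthase subunits ATP5F1B (172 bp) and ATP5MC2 (185 bp). Entries with starts within 10 bp of the outermost RefSeq start were again fewer. In that set the shares of solute carrier, oxidative phosphorylation, RAB and TMEM genes were 12.8%, 21.4%, 25% and 12.9%. TMEM genes had 6 of 74 (8.11%), from TMEM135 at 131 bp through TMEM38B at 152 bp to TMEM134 at 197 bp, and CCDC genes had 7 of 34, from CCDC62 at 106 bp through CCDC80 at 140 bp to CCDC71L at 162 bp. RAB GTPases, which steer vesicles, had 4 of 31 (12.9%) and ran from RAB25 (108 bp) through RAB22A (114 bp) to RAB20 (186 bp). Genes with a vacuolar sorting (VPS) symbol, grouped by symbol and not by function, ran from VPS45 (103 bp) through VPS36 (115 bp) to VPS72 (172 bp). Kinesins beside KIF11 were KIF20B (174 bp) and KIF1C (185 bp), and CDK17 (135 bp) joined CDK1 and CDK9 in the cyclin and CDK family. The MAP kinase cascade had MAP3K2 (123 bp), MAP3K5 (156 bp) and MAPK9 (191 bp). None of the 10 listed V-ATPase genes was a member.

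**Figure D4:**
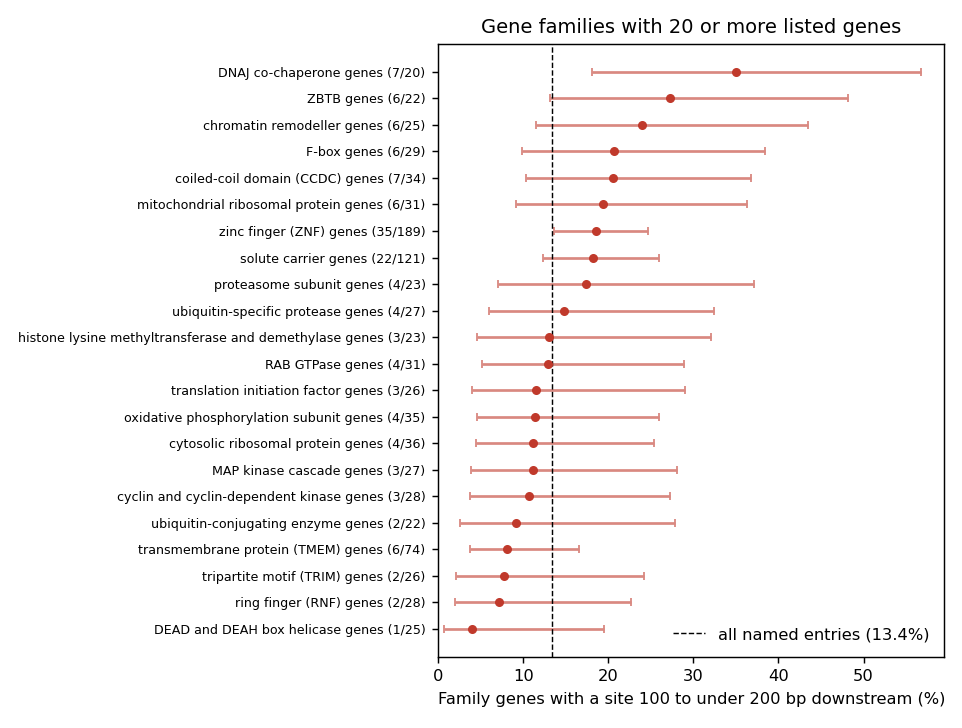
Share of each family's listed genes that are members (point, x axis, %) with its 95% Wilson interval (bar), for the 22 families with at least 20 listed genes; the dashed line is the 13.4% of all named entries. The intervals of the DNAJ and ZNF genes begin to the right of the line, and those of the other 20 families cross it.

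The members' genes were of ordinary length for this list. Their median was 34495 bp (quartiles 14365 and 79746 bp), against 35727 bp (16065 and 80915 bp) in the other entries. It was 35218 bp for members under 150 bp and 31622 bp for the rest. At entries with a site 60 to 99 bp downstream the median was 33493 bp, and from 200 bp on it was 39117 bp. The shortest named members were MARS2 (3027 bp), CHAC1 (3042 bp) and TSSC4 (3125 bp), with sites at 131, 138 and 109 bp. The longest were FHIT (1504176 bp), a diadenosine triphosphate hydrolase gene that spans a common fragile site, ULK4 (715487 bp) and MECOM (579783 bp), with sites at 181, 110 and 191 bp. FHIT was the longest gene of the whole list. The plus strand held 53.3% of the members and 51.6% of the others.

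Members occurred on every chromosome except Y. Chromosome 12 had the highest share, 60 of 339 entries (17.7%, 14 to 22.1%), followed by chromosome 9 with 44 of 254 (17.3%) and chromosome 2 with 78 of 456 (17.1%). The lowest shares among chromosomes with members were 16 of 178 on chromosome 20 (8.99%, 5.61 to 14.1%) and 40 of 377 on chromosome 19 (10.6%). Chromosome Y had 0 of 5 entries, which allows a share of up to 43.4%. The chromosomes differed little against their intervals, and chromosomes 2 and 12 were the ones in this description whose intervals lay above the overall 13.6%.

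The distance depends on where the list puts the 5′ end, so that end was set against the RefSeq starts. Because the listed end also enters the rule, this is a description. It matched the nearest start in the promoter table exactly in 195 of the 648 members found there (30.1%) and in 31.6% of the 4161 other entries found. It lay within 10 bp in 46.3% of the members and 49.3% of the others. In 38.7% and 39.7% it lay more than 10 bp downstream. It lay more than 10 bp upstream in 15% of the members (12.4 to 17.9%) and 11% of the others (10.1 to 12%). This upstream share was 14.5% at entries with 60 to 99 bp and 24% from 200 bp on. Against the outermost RefSeq start, 192 of the 779 named members matched exactly (24.6%) and 26.0% of the others did.

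Among the genes of the lists, 14 of the 30 found in the table had their listed 5′ end exactly at a table start, among them BTG2, MLLT3, HSF2, PRIM2, KIF11, CDK1, HSPA8 and PKM. For these the distance is the same from either source, such as 110 bp for BTG2 and 186 bp for HSPA8. JUN and DUSP6 began 4 bp downstream of the table's start, XRN2 12 bp, RTF1 37 bp, NUP50 72 bp and MAD2L1 92 bp, so that the RTF1 site lay 168 bp and the MAD2L1 site 193 bp from the RefSeq start. BMP4 differed most among them, with an offset of -1772 bp, where a negative offset places the listed 5′ end upstream of the nearest start in the table.

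Measured from the nearest start in the table, the members' sites had a median distance of 146 bp and those of the others 60 bp. Of the 648 members, 470 (72.5%) remained at 100 to 199 bp, 106 (16.4%) moved to 200 bp or more, 30 (4.63%) fell to 0 to 99 bp and 42 (6.48%) lay upstream of it. In 9 of the 648 (1.39%, 0.732 to 2.62%) any table start of the same gene lay 20 to 59 bp before the site. In the other entries this was so in 40.3%. The listed end lay within 10 bp of the nearest table start in 46.3% of the members and 49.3% of the others. The rule on distance therefore sets much of this contrast, and of that between the medians, in advance. Since the nearest start was used, the same holds for the 72.5% that remained. No conclusion is drawn from any of them. A same-strand start of another gene lay in that span in 0 of the 779 named members, which allows a share of up to 0.491%, and in 18 of 5043 others. More than 1 start was listed in the table for 27.5% of the members and 28.8% of the others.

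**Figure D5:**
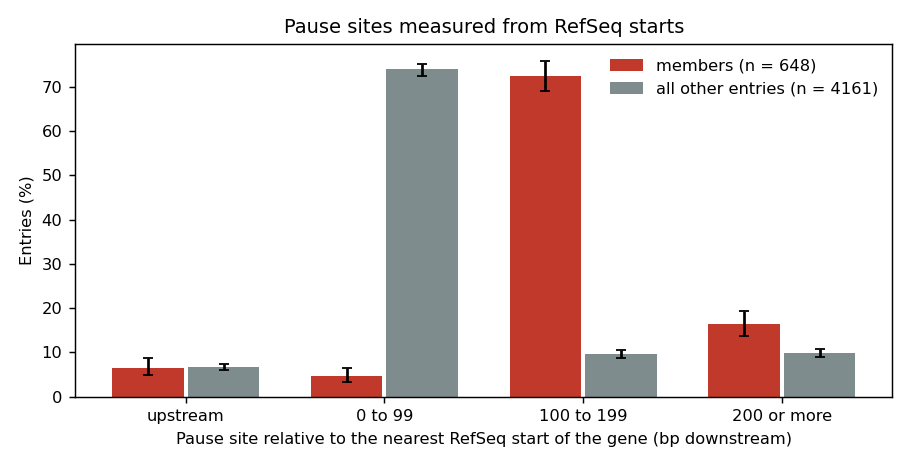
Position of the pause site relative to the nearest RefSeq start of the gene (x axis, bp downstream) as a share of entries (y axis, %), for 648 members in red and 4161 other entries in grey, with 95% Wilson intervals as error bars. Most members (72.5%) stay at 100 to 199 bp when RefSeq starts replace the listed ends. The start nearest the listed end was taken, so the rule sets much of this share in advance.

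The surroundings of the members' sites were similarly mixed. Another RefSeq gene covered the site in 92 of 779 named members (11.8%) and in 13% of the others. A lncRNA gene did so in 7.32% and 9.10%, and a coding gene in 4.11% and 3.73%. Among the 1539 pairs of list entries that follow each other head to head, both were members in 26 (1.69%). This was so in 25 of 1537 tail-to-tail pairs and 64 of 3381 tandem pairs. Over all 6457 pairs it was so in 115 (1.78%). Genes outside the list can lie between the 2 entries of a pair. The closest head-to-head pair was SLC25A45, a mitochondrial carrier gene, with FRMD8, at 129 and 119 bp, with 3826 bp between their 5′ ends. PMVK with CKS1B (192 and 115 bp) had 38400 bp between them, and HNRNPLL with GALM, PLA2G12A with GAR1, and FBXL14 with ADIPOR2 had 63232, 85746 and 96515 bp. The other pairs with symbols on both sides, at 118450 bp or more, were TMPRSS3 with SLC37A1, MED7 with CYFIP2, FTH1 with INCENP, MKRN1 with ADCK2, MAPK9 with CNOT6, CYB5A with CNDP2, LRRC75B with SGSM1, MIPEP with SPATA13, PSD3 with SH2D4A, SERTAD2 with SLC1A4, PTAR1 with SMC5, ULK4 with VIPR1, SMAD2 with CTIF, ATP8B1 with MALT1, CCDC6 with CDK1 and PGAP4 with SMC2. The widest gap was 2607255 bp, between PGAP4 and SMC2. No head-to-head pair of members thus had 5′ ends closer than those of SLC25A45 and FRMD8.

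The promoters of the members were rich in G and C, as were those of the other entries. Over windows from 250 bp before to 50 bp after the RefSeq start, the median G+C content was 66.7% in the 648 members, 67.7% in the other entries and 58.7% over all 35116 windows of the table. The ratio of observed to expected CpG had medians of 0.879, 0.870 and 0.579. Members and other entries thus lay close together, and both lay above the table as a whole. The median was 66.8% for members under 150 bp and 66.3% for those from 150 bp on.

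Each of 12 short motifs was searched on both strands of these windows, and a match is a description of letters and not a binding site. None of these sequences contains another on either strand. The GC box GGGCGG, a sequence of SP1-type factors, occurred in 77.5% of the members, 78.2% of the others and 45.0% of all windows. CCAAT, the NF-Y box, occurred in 37.8%, 36.3% and 34.6%. The ETS sequence CCGGAAG occurred in 18.1%, 19.6% and 10.3%, the NRF1 core TGCGCA in 13.1%, 14.6% and 8.24%, and the YY1 sequence AAGATGGCG in 3.70%, 4.61% and 1.75%. The cyclic AMP response sequence TGACGT was found in 11.9%, 12.7% and 7.98%, and the E-box CACGTG in 9.41%, 10.4% and 7.26%. The E2F sequence TTTCCCGC was found in 4.32% of the members, 2.81% of the others and 1.63% of all windows. The AP-1 sequence TGAGTCA was found in 2.47%, 2.55% and 4.95%. The sequences CTCGCGAG (1.70%, 2.50% and 1.02%) and ACAATTCCC (1.23%, 0.721% and 0.473%) were rare throughout. With listed ends within 10 bp of the table's start, ACAATTCCC occurred in 6 of 300 members (2%) and 14 of 2052 others (0.682%). In that set TGACGT occurred in 8.33% of the members and 13.3% of the others, and CACGTG in 6.67% and 10%. GGGCGG occurred there in 81.7% and 81%, and CCGGAAG in 21.3% and 19.8%.

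The TATA sequence TATAAA occurred in 5.09% of the members' windows, 3.97% of the others' and 11.5% of all. On the gene's strand 15 to 40 bp before the listed 5′ end, where a TATA box usually lies, it was found in 5 of 622 members (0.804%) and 50 of 3947 others (1.27%). The members' promoters therefore had few such boxes, as did those of the rest of the list.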

How the data were processed

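The series comprises 50 ChIP-seq libraries of DLD-1 lines. Both tables used here were deposited by the authors for the whole series as hg38 coordinates in bp, with 6481 rows each, a gene interval and a pause site of 1 bp, and no value per library. The submitters' processing notes name cutadapt 1.14, Bowtie2 2.2.6 and deepTools 3.1.1 and the builds hg38 and mm10, with no role or order. The sources used here do not state how sites were called.

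Rows were joined by Ensembl identifier and distances taken along the gene's strand. An entry received a RefSeq symbol (GRCh38.p14) when exactly 1 gene ended within 50 bp of its 3′ end and covered at least 50% of it. An 80% reciprocal overlap named 5416 entries, and 0 of the 5199 named by both rules differed. Of several promoter windows of a gene, the one starting nearest the listed 5′ end was used; strand agreed for all 4809 matched entries. Bases were read by coordinate from any covering window.

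The members and gene lists were chosen with earlier results of these data known. Named genes were all list members, the smallest, middle and largest distance of each family, the 3 shortest and longest genes, entries at the limits and head-to-head pairs; a few of these genes are not reported here. Alternatives changed the limits, naming, starts and windows. The reading of bases by coordinate was checked against the table's own windows. Python 3.11.15, NumPy 2.4.6, pandas 2.3.3, SciPy 1.17.1 and matplotlib 3.10.9 were used.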

Additional observations from a re-analysis of the deposited data

How the results depend on the processing

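The share of all entries with a site at 100 to 199 bp was 13.6% as reported. It was 12.4% among entries that begin at most 10 bp from the outermost RefSeq start. With distances from that start it was 15.7%, and with distances from the nearest promoter table start 18.1%. The share of members beginning exactly at a RefSeq start was 30.1% with the promoter table in place of 24.6%. The promoter table start and the alternatives for the base after the site (own windows only, each strand alone) were chosen after seeing the data. The other 12 recomputed values of these kinds, of gene length, strand, G+C content and cytosine after the site stayed within the 95% interval of the reported share or, for the medians of gene length and G+C content, between its quartiles. Of the single families and motifs, 45 values remained within their intervals and 11 moved, 7 families in the set with starts within 10 bp of the outermost RefSeq start and 4 motifs in the set within 10 bp of the promoter table start. The cause was not tested. No paired analysis was possible because the lists hold no value per library. Depth is unknown, so the precision of a single site cannot be stated, and no site was placed in an exon or intron.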
